A study of Mus musculus with 9 samples.

Results

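Mitosis and spindle genes are the 44 genes described here: mitotic cyclins with Cdk1, mitotic kinases, checkpoint proteins, kinetochore proteins, spindle motors, cytokinesis proteins and proteins of condensed chromosomes. They were chosen by gene symbol in the deposited count table, which lists 25361 genes. All 44 were in the table, all 44 had at least 30 counts over the 9 libraries, and all 44 were among the 9009 genes with enough counts to be tested. RNA was measured in cells taken with CD8a magnetic beads from subcutaneous MC38 tumours, MC38 being a mouse colon carcinoma line. The mice were wild-type male C57BL/6N animals in 3 groups of 3 libraries: 5 months old and fed ad libitum (young), 20 months old and fed ad libitum (aged ad libitum), and 20 months old on long-term caloric restriction at 70% of the ad libitum intake (aged restricted). Every animal, in all groups, had received 500000 MC38 cells under the skin, and tumours were taken 21 days later. There was no young restricted group, so the effect of diet was measured in aged mice only, and aged restricted against young mixes age with diet.

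Mitosis is the stage of the cell cycle at which a cell shares its copied chromosomes between its daughters. Cyclin A and cyclin B bound to CDK1 drive entry, condensins and topoisomerase II compact and untangle the chromosomes, kinetochores attach them to the microtubules of the spindle, and the spindle checkpoint holds the anaphase-promoting complex until every chromosome is attached. The mRNAs of these genes peak late in the cell cycle, and any dividing cell in a bulk sample adds to them. Fewer dividing cells and less RNA per cell cannot be told apart here.

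The promoters of late cell-cycle genes are known for a short element, the cell cycle genes homology region, with the core TTTGAA, to which the MuvB complex binds, and for CCAAT boxes bound by NF-Y. Promoters from RefSeq (GRCm38.p6, from 250 bases before to 50 bases after the start, 300 bases in all) were found for 38 of the 44 members, giving 41 promoters, since some genes have more than 1 start. Those of Cks1b, Cdk1, Ccnb2, Cenpe and Top2a are shown. Ccnb2 was chosen for a regular run of CCAAT boxes, and the others for being among the members with the smallest p in a comparison. A small p here was mostly not a call: after adjustment, edgeR, the main test, called only Cks1b, for any difference among the groups. Each reads 5′ to 3′ along the gene, and capitals mark TTTGAA or its reverse complement TTCAAA and CCAAT or its reverse complement ATTGG. The windows are chr3:89418242-89418541, minus strand (Cks1b), chr10:69352863-69353162, minus strand (Cdk1), chr9:70421505-70421804, minus strand (Ccnb2), chr3:135212313-135212612, plus strand (Cenpe) and chr11:99024140-99024439, minus strand (Top2a).
Cks1b: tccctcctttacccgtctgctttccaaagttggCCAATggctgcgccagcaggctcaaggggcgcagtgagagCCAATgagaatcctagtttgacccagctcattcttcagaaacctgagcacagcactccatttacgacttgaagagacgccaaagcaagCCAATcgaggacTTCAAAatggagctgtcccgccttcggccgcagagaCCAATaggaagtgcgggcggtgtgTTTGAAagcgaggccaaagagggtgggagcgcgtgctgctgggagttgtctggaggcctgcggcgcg
Cdk1: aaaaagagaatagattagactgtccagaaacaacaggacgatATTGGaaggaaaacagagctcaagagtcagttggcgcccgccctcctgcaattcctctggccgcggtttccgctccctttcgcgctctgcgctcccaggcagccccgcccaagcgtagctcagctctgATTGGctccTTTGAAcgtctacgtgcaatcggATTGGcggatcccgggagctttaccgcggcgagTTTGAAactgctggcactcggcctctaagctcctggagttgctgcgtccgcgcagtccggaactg
Ccnb2: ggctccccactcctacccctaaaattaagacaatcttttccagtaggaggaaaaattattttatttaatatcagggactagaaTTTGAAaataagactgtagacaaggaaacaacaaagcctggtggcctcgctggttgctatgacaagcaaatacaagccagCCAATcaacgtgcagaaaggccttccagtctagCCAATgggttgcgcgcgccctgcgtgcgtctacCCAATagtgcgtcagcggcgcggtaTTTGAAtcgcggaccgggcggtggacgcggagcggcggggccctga
Cenpe: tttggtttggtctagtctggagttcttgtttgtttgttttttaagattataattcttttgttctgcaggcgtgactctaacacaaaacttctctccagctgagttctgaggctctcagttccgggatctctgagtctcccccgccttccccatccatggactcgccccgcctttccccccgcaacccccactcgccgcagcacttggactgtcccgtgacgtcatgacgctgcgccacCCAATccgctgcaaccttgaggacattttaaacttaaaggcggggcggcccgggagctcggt
Top2a: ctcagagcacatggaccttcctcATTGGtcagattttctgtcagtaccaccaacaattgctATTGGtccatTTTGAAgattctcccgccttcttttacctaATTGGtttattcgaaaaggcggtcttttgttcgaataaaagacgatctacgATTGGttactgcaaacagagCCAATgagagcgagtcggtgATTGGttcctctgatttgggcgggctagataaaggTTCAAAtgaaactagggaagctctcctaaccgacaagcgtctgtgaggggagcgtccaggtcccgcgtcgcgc

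TTTGAA, searched on both strands, was in 33 of the 41 member promoters (80.5%), against 17.9% of the 32851 promoters of the reference and 12.3% of the 9228 promoters of tested genes. CCAAT, on both strands, was also in 33 of 41 (80.5%), against 37.4% of all promoters and 37.1% of those of tested genes. A TTTGAA and a CCAAT match can share at most 1 base. Both motifs stood together in 29 member promoters (70.7%), against 6.95% of all promoters and 4.91% of those of tested genes. The related letters TTTAAA were in 9 member promoters (22.0%), against 13.2% of all. A match is a run of letters and not a measured binding site.

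Of 45 TTTGAA matches in member promoters, 31 (68.9%) lay within 60 bases of the start, with a median distance of -17 bases, whereas 28.2% of the matches in all promoters lay that close. Bub3, Ect2 and Prc1 each have 2 overlapping promoters, and a site in both was counted at each start. CCAAT boxes stood farther upstream, with a median of -76 bases over 76 matches, 42 of them (55.3%) between -120 and -20 bases, against 45% in all promoters. Among the 40 neighbouring CCAAT pairs, taken at the first listed start of each gene, 23 were 25 to 45 bases apart, in 18 genes. In Ccnb2 the boxes lay at -87, -54 and -21 bases and a TTTGAA lay 5 bases after the start. Cks1b and Cdk1 each held TTTGAA close before the start, at -17 and -15 bases, and Cenpe held 1 CCAAT box and no TTTGAA. It also held TTTAAA, 15 bases after the start.

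**Figure D1:**
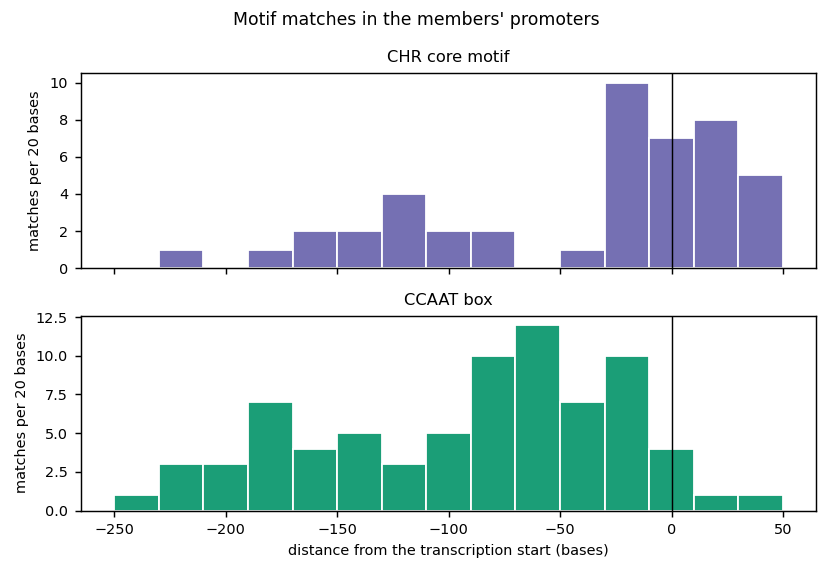
Number of TTTGAA matches (upper panel, the core motif) and CCAAT matches (lower panel) per 20 bases (y axis) by distance from the transcription start in bases (x axis), on either strand, in the 41 member promoters. TTTGAA matches crowd within 60 bases of the start (31 of 45) and CCAAT matches lie mostly upstream of it, with a median of -76 bases. A site in overlapping promoters of a gene is counted at each start.

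By promoter content the 38 genes fell into 26 with both motifs, 4 with TTTGAA only (Anln, Kif20b, Kif2c and Ndc80), 4 with CCAAT only (Bub1, Ccnb1, Cenpe and Cks2) and 4 with neither (Birc5, Mad2l1, Nuf2 and Nusap1). The median log2 fold change of aged ad libitum against young was -0.19 for genes with both motifs, 0.31 for TTTGAA only, -0.23 for CCAAT only and -0.54 for neither. With 4 genes in each of the smaller classes, and member log2 fold changes that ran from -2.05 to 1.93, these medians are a description.

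Library totals ran from 810662 to 1258575 counts and were lowest in the aged ad libitum group (810662 to 908514). Mitochondrially encoded genes took 23.5% to 45.7% of the counts. All 13 markers of the labelled CD8 T cell had counts. They summed to 200.3 to 384 CPM (counts scaled to a library total of 1000000) in young, 297 to 590 in aged ad libitum and 391 to 544 in aged restricted libraries. The 13 monocyte and macrophage markers summed to 3944 to 4364, 2330 to 6272 and 8444 to 9965, above the CD8 T cell markers in every library. The 10 fibroblast markers summed to 1308 to 1603, 1070 to 1351 and 784 to 2475, and the 10 endothelial markers to 88.4 to 143, 236 to 681 and 89.8 to 297, in the same order. Tumour epithelium markers summed to 26.2 at most, with Krt18, Krt19 and Cldn7 at 0 in every library. Keratinocyte (6.5 to 12.3, 70.9 to 132 and 207 to 703), skeletal muscle (0 to 10.5, 7.7 to 32.1 and 65.9 to 282) and red cell markers (0 to 7.4, 45.6 to 95.8 and 166 to 389) were highest in restricted libraries. The 7 neutrophil markers summed to 16.2 to 59.8, 46.2 to 97.5 and 89.0 to 119. The part of these other cell types in the members' levels was not tested.

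The members together stood highest in the young libraries, and the aged groups overlapped. Their summed level, in CPM of all counts, was 3365, 3371 and 2836 (young), 2887, 2662 and 2872 (aged ad libitum) and 2011, 2932 and 2670 (aged restricted). Group means were 3191 ± 307, 2807 ± 126 and 2538 ± 474 (SD, n = 3). Young libraries 1 and 2 stood above the 7 others, and young library 3 lay among the aged ones. After scaling by TMM, which allows for differences in RNA composition, the sums were 3396, 3347 and 3041 against 2669, 2922 and 2862 and 2431, 2421 and 2721. On that scale every young library lay above every aged one. A single library was highest for 11, 8 and 4 members among the young, 3, 6 and 2 among the aged ad libitum and 1, 5 and 4 among the aged restricted libraries.

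In edgeR's quasi-likelihood test with Benjamini-Hochberg adjustment over 9009 genes, 0 of 44 members passed an adjusted p of 0.05 for aged ad libitum against young, where 0.289% of all tested genes passed. For aged restricted against aged ad libitum 0 members passed, against 0.944% of all genes, and for aged restricted against young 0 members passed, against 1.94%. At an unadjusted p under 0.05, 4, 3 and 6 members passed, where 10.4%, 11.7% and 11.6% of all tested genes did. All of these members were lower in the group named first. The 4 lower with age (Cks1b, Cdk1, Ube2c and Ncapd2) compare with 4.77% of tested genes lower, and 0 members higher with 5.58%. For diet, 3 were lower (Cenpe, Smc4 and Smc2), where 5.45% of tested genes were, and 0 higher, where 6.29% were. For aged restricted against young, 6 were lower (Cenpe, Cdk1, Top2a, Cks1b, Birc5 and Smc2), where 5.38% were, and 0 higher, where 6.22% were. DESeq2 called 1 (Cks1b), 1 (Cenpe) and 0 members, and 83, 154 and 238 genes of the whole table. It was run without the edgeR filter on low counts. Its number of tested genes is not given here, so its calls have no share beside them. In the edgeR test of any difference among the 3 groups 1 member passed, Cks1b, where 2.13% of all tested genes passed, and 6 members had an unadjusted p under 0.05, against 14.0%. DESeq2 called 2 members in that test, Cenpe and Cks1b, and 298 genes of the whole table.

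Fitted levels were lower in aged ad libitum than in young for 28 of 44 members, with a median log2 fold change of -0.19. Of all tested genes 50.1% were lower, with a median of 0.00. Aged restricted was lower than aged ad libitum for 22 of 44 (median -0.03), against 50% of all genes (median 0.00). Aged restricted was lower than young for 31 of 44 (median -0.27), against 48.9% of all genes (median 0.02). The age and diet comparisons share the aged ad libitum libraries, and each shares its other group with the third comparison. Whether libraries of 2 groups overlapped was read on the TMM scale. All 3 aged ad libitum libraries lay below all 3 young ones for 7 members (15.9%, against 8.58% of tested genes): Ccnb1, Cks1b, Cks2, Aurkb, Birc5, Stmn1 and Ncapd2. The reverse held for 2 members, Ttk and Mki67 (4.55%, against 7.4%). Restricted libraries were all below aged ad libitum ones for Cenpe, Spc25, Mki67, Smc2 and Smc4 (5 members, against 8.47% of tested genes) and all above for Ccnb2, Cks1b, Cenpa, Ndc80 and Prc1 (5 members, against 9.26%). Against young, restricted libraries were all below for 9 members (Ccna2, Cks1b, Birc5, Cenpe, Tpx2, Top2a, Smc2, Smc4 and Ncapd2, against 9.26%) and all above for 2 (Ccnb2 and Kif2c, against 9.82%).

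**Figure D2:**
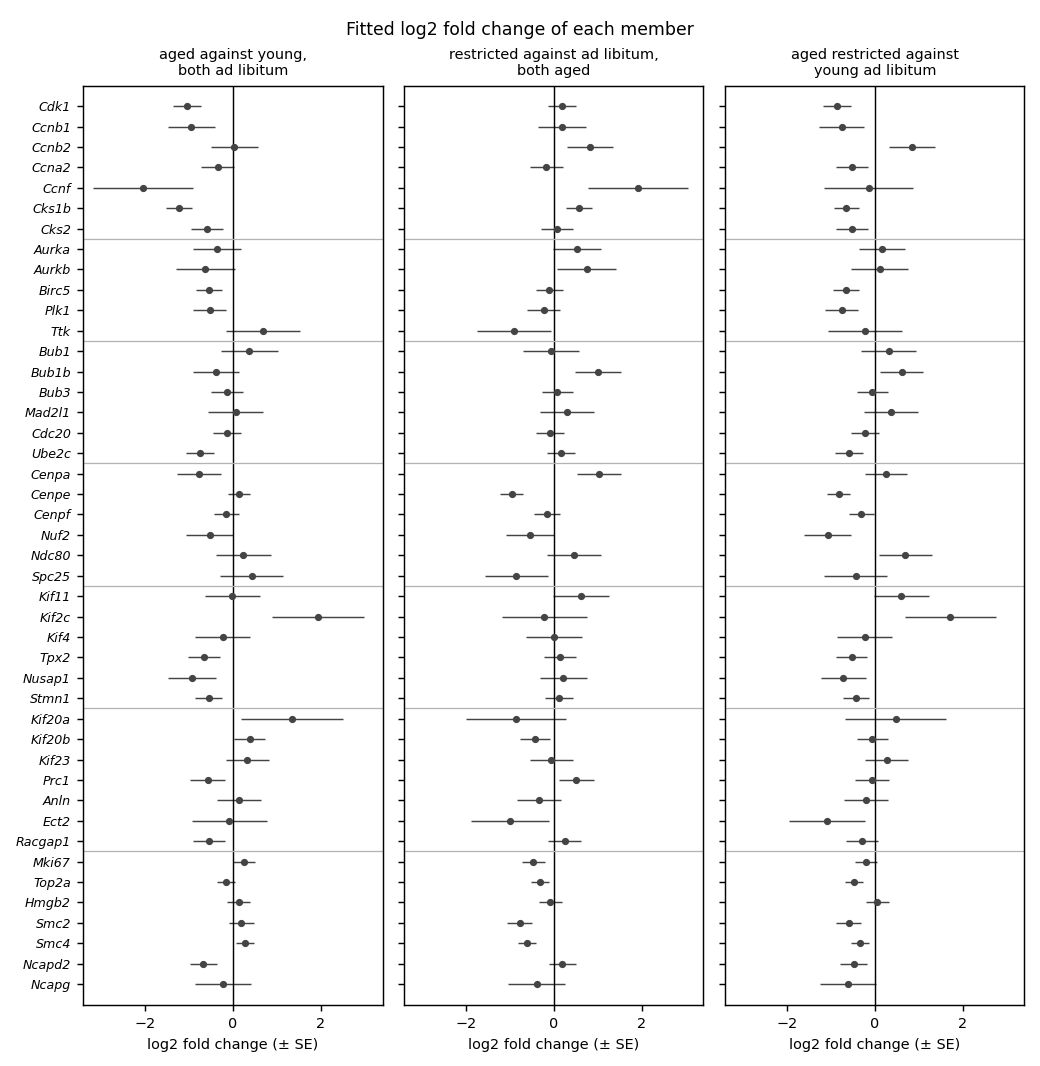
Log2 fold change with its standard error (x axis) of each of the 44 members (rows, by role) in the 3 comparisons. Values spread to both sides of 0 in each comparison, and no member passed an edgeR adjusted p of 0.05 between a pair of groups, while DESeq2 called Cks1b for age and Cenpe for diet.

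The group of cyclins and CDK1 partners held 7 genes: Cdk1, the cyclins Ccnb1, Ccnb2, Ccna2 and Ccnf, and the small CDK subunits Cks1b and Cks2. Fitted levels were lower in aged ad libitum than in young for 6 of 7 (median log2 fold change -0.94). They were higher in aged restricted than in aged ad libitum for 6 of 7 (median 0.19). Against young, aged restricted was lower for 6 of 7 (median -0.52). Cks1b encodes a small subunit that docks CDKs onto their substrates and helps SCF-Skp2 recognise the inhibitor p27. Cks1b had 247, 200 and 130 counts (young), 90, 39 and 49 (aged ad libitum) and 88, 171 and 108 (aged restricted). TMM-scaled, these were 160 ± 44.6, 68 ± 20.8 and 102 ± 8.95 CPM (SD, n = 3 each), and the 3 groups did not overlap: every young library was highest, every aged ad libitum library lowest. The 3-group test passed (edgeR adjusted p = 0.0495). Against young the log2 fold change was -1.23 ± 0.29 (SE) in aged ad libitum mice (edgeR adjusted p = 0.0666) and -0.65 ± 0.29 in aged restricted mice (edgeR adjusted p = 0.356). Aged restricted against aged ad libitum gave 0.58 ± 0.30 (edgeR adjusted p = 0.454). The 3-group call ended without any 1 of 6 libraries (edgeR adjusted p = 0.0686 to 0.248: young 1 or 2, aged ad libitum 2 or 3, restricted 1 or 3), with RLE scaling (0.0572) and with library totals (0.155). In addition, 158 bases of the last 600 of Cks1b match the pseudogene Gm6340 at 95.6% identity, so some reads could match both. Gm6340 is not listed in the count table.

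Cdk1, the kinase at the centre of mitotic entry, had 230, 258 and 111 counts (young), 110, 47 and 52 (aged ad libitum) and 99, 93 and 116 (aged restricted). TMM-scaled, this was 165 ± 58.8, 79.6 ± 28 and 91.3 ± 26.4 CPM, and the groups overlapped, since young library 3 (98.2) lay below aged ad libitum library 1 (112). The log2 fold change was -1.05 ± 0.32 (SE) for age (edgeR adjusted p = 0.18) and -0.87 ± 0.32 for aged restricted against young (edgeR adjusted p = 0.218), so neither passed. Cyclin B1 (Ccnb1) stood at 39.9 ± 1.11, 20.5 ± 8.22 and 23.4 ± 17.6 CPM and cyclin B2 (Ccnb2) at 18.6 ± 8.57, 18.8 ± 8.99 and 33.4 ± 3.07 CPM: all restricted libraries exceeded the others for Ccnb2, and the young libraries held 38.9 to 41.1 CPM of Ccnb1 against 12.1 to 28.5 in aged ad libitum. Cyclin A2 (Ccna2) stood at 58.6 ± 11.7, 46.3 ± 15.5 and 41 ± 5.45 CPM, Cks2, the other small CDK subunit, at 62.7 ± 4.48, 41.6 ± 3.52 and 43.4 ± 13.1 CPM, and cyclin F (Ccnf, 95 counts in all) at 13.3 ± 11.4, 3.07 ± 3.07 and 12.1 ± 10.1 CPM, with 0 counts in aged ad libitum library 2.

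**Figure D3:**
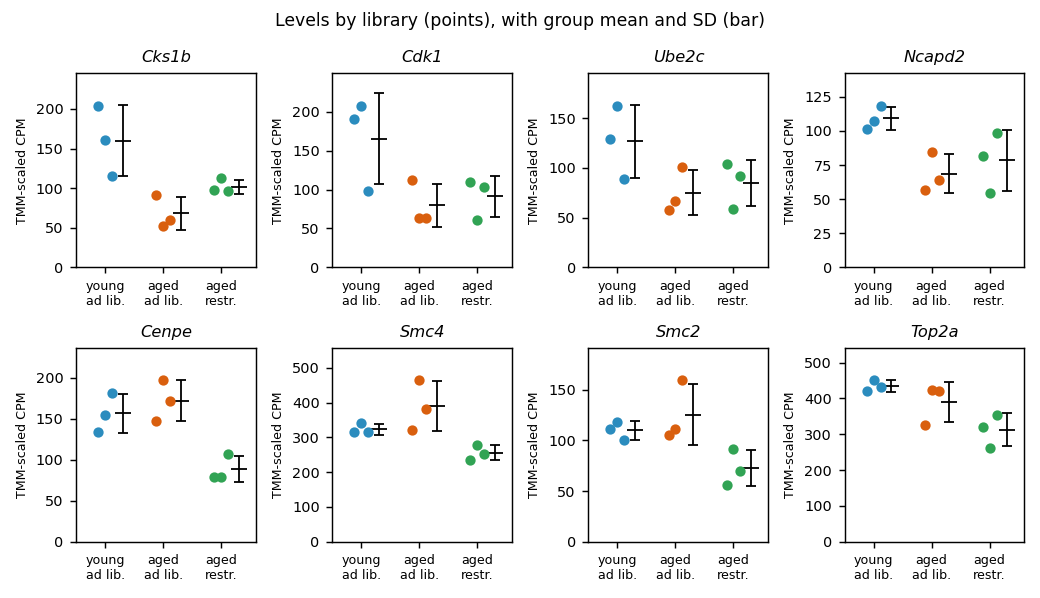
TMM-scaled CPM (y axis, from 0) of Cks1b, Cdk1, Ube2c, Ncapd2, Cenpe, Smc4, Smc2 and Top2a in each library, with the mean ± SD of 3 libraries per group. On this scale Cks1b separates all 3 groups by narrow margins (160 ± 44.6, 68.0 ± 20.8 and 102 ± 8.95). Cenpe separates the restricted group from both others (88.2 ± 16 against 157 ± 23.8 and 172 ± 24.8).

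Mitotic kinases and chromosomal passengers, 5 genes, had a median log2 fold change of -0.53 for age, with 4 of 5 lower, and of -0.10 for aged restricted against aged ad libitum, with 3 of 5 lower. Birc5, the passenger protein survivin, had 234, 131 and 119 counts (young), 101, 68 and 66 (aged ad libitum) and 68, 119 and 116 (aged restricted). Its levels were 135 ± 50.8, 91.7 ± 10.8 and 85.5 ± 15.3 CPM, and all aged ad libitum and all restricted libraries lay below all young ones; the age log2 fold change was -0.55 ± 0.29 and its edgeR adjusted p was 0.543. Plk1, a kinase of centrosomes and kinetochores, had 78, 122 and 94 counts (young), 78, 37 and 33 (aged ad libitum) and 32, 51 and 86 (aged restricted). Its levels, 82 ± 16.9, 56.5 ± 20.3 and 48.5 ± 24.3 CPM, overlapped between groups. Of the others, Aurka, the centrosome kinase, stood at 22.9 ± 10.5, 17.8 ± 4.91 and 25.6 ± 7.59 CPM, Aurkb, the passenger kinase, at 16.2 ± 3.9, 10.3 ± 4.3 and 17.6 ± 7.8 CPM, and Ttk, the checkpoint kinase Mps1, at 11.5 ± 3.1, 18.5 ± 2.19 and 9.36 ± 12.6 CPM, with 0 counts in restricted library 1.

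Spindle checkpoint and anaphase genes, 6 members, had median log2 fold changes of -0.13 for age and 0.12 for aged restricted against aged ad libitum. Ube2c, the ubiquitin-conjugating enzyme of the anaphase-promoting complex, had 156, 202 and 101 counts (young), 57, 50 and 82 (aged ad libitum) and 94, 90 and 103 (aged restricted). Its levels were 127 ± 36.7, 75.3 ± 22.6 and 84.9 ± 23.2 CPM, which overlapped, with a log2 fold change for age of -0.76 ± 0.32 (edgeR adjusted p = 0.376). Cdc20, the activator that the checkpoint holds back, had 76, 105 and 81 counts (young), 68, 62 and 39 (aged ad libitum) and 58, 86 and 76 (aged restricted). TMM-scaled, Cdc20 stood at 73 ± 10.9, 66.8 ± 17.7 and 62.7 ± 5.72 CPM, with all groups overlapping. Bub1b, the checkpoint protein BubR1, stood at 27.6 ± 3.43, 20.8 ± 14.9 and 42.2 ± 11.2 CPM and aged restricted against aged ad libitum gave 1.00 ± 0.52 (edgeR adjusted p = 0.46). The remaining checkpoint genes Bub1, Bub3 and Mad2l1 had log2 fold changes between -0.13 and 0.37 in every comparison. The 3′ ends of Cdc20 and Ube2c lie in genes of the opposite strand, Elovl1 and Tnnc2, and whether strand was used in counting is not given in the sources used here; Tnnc2, a muscle gene, had 0 counts in the young libraries, 0, 0 and 4 in aged ad libitum and 31, 22 and 19 in restricted libraries, and the part of such reads in the levels was not tested.

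Among the 6 centromere and kinetochore members, the median log2 fold change was -0.01 for age and -0.35 for aged restricted against aged ad libitum. Cenpe, the kinesin that carries chromosomes to the spindle equator, had 162, 192 and 205 counts (young), 145, 147 and 139 (aged ad libitum) and 71, 121 and 120 (aged restricted). TMM-scaled, this was 157 ± 23.8, 172 ± 24.8 and 88.2 ± 16 CPM, and every restricted library (78.6, 79.4 and 107) lay below every library of the other groups, which ran from 134 to 197. Aged restricted against aged ad libitum gave a log2 fold change of -0.96 ± 0.26 (SE, edgeR adjusted p = 0.066; DESeq2 adjusted p = 0.0260), and against young -0.83 ± 0.26 (edgeR adjusted p = 0.112), while age gave 0.13 ± 0.25 (edgeR adjusted p = 0.909). Leaving out any 1 restricted or aged ad libitum library gave edgeR adjusted p = 0.0577 to 0.293 for the diet comparison.

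Cenpa, the histone H3 variant that marks centromeres, had 65, 51 and 14 counts (young), 33, 11 and 11 (aged ad libitum) and 40, 57 and 52 (aged restricted). Levels were 35.7 ± 21.2, 20.6 ± 11.2 and 42.6 ± 4.65 CPM; all restricted libraries lay above all aged ad libitum ones, and young library 3 (12.4) lay below all of them. The diet log2 fold change of 1.02 ± 0.51 had an edgeR adjusted p of 0.434. Cenpf, a large coiled-coil kinetochore protein whose 3′ end holds a repeat shared with many transcripts, had 149, 166 and 178 counts (young), 78, 91 and 140 (aged ad libitum) and 123, 125 and 133 (aged restricted). TMM-scaled, Cenpf stood at 138 ± 17.6, 125 ± 46.4 and 112 ± 27.6 CPM, with overlapping groups. The NDC80 complex, which grips microtubules, was measured by Ndc80 (14.9 ± 10.9, 17.5 ± 2.8 and 24.1 ± 2.45 CPM), Nuf2 (31.3 ± 13.5, 21.8 ± 7.84 and 14.9 ± 5.57 CPM) and Spc25 (12.7 ± 5.67, 17.1 ± 5.3 and 9.42 ± 3 CPM), and its genes did not share a direction: aged restricted against young gave 0.69 ± 0.60, -1.07 ± 0.54 and -0.43 ± 0.72 on the log2 scale, with edgeR adjusted p = 0.751, 0.446 and 0.905.

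Spindle motors and microtubule proteins, 6 members, were lower with age in 5 of 6 (median log2 fold change -0.39). Stmn1, or stathmin, which destabilises microtubules, had 140, 112 and 83 counts (young), 72, 46 and 45 (aged ad libitum) and 71, 99 and 72 (aged restricted). Its levels of 93.1 ± 21.3, 63.4 ± 9.09 and 69.2 ± 8.16 CPM placed all aged ad libitum libraries below all young ones, by a narrow margin (73.3 against 73.4 at the boundary), with an age log2 fold change of -0.55 ± 0.31 (edgeR adjusted p = 0.567). Tpx2, the activator of Aurora A on spindle microtubules, had 93, 100 and 71 counts (young), 43, 20 and 55 (aged ad libitum) and 37, 85 and 62 (aged restricted). TMM-scaled, Tpx2 stood at 73.4 ± 9.36, 46.1 ± 20.5 and 50.6 ± 8.37 CPM; all restricted libraries lay below all young ones, and 1 aged ad libitum library (67.6) lay among the young. Kif11, the spindle motor that pushes poles apart, stood at 16.9 ± 10.3, 16.9 ± 9.64 and 25.8 ± 17 CPM, Kif4 at 32.4 ± 8.43, 27 ± 26.9 and 27.3 ± 11.6 CPM, Nusap1 at 46 ± 26.4, 24.5 ± 21.9 and 27.8 ± 6.11 CPM and Kif2c at 3.66 ± 2.46, 14.1 ± 13.7 and 12.2 ± 4.04 CPM, with wide spreads. Kif2c, a depolymerising kinesin, had the highest age log2 fold change of the members, 1.93 ± 1.05, from 95 counts in all and edgeR adjusted p = 0.546.

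Midzone and cytokinesis genes, 7 members, had median log2 fold changes of 0.14 for age and -0.34 for aged restricted against aged ad libitum. Kif20b, a kinesin of late mitosis, had 47, 70 and 72 counts (young), 60, 61 and 52 (aged ad libitum) and 45, 60 and 72 (aged restricted). TMM-scaled, Kif20b stood at 53 ± 12.8, 68.9 ± 11.2 and 51.1 ± 12.4 CPM. Racgap1, which with Kif23 forms the centralspindlin complex, had 60, 92 and 72 counts (young), 42, 44 and 22 (aged ad libitum) and 40, 68 and 71 (aged restricted). TMM-scaled, Racgap1 stood at 62.5 ± 12.3, 42.9 ± 16 and 50.7 ± 10.8 CPM. Both overlapped between the groups. Prc1, the microtubule bundler of the midzone, stood at 57.1 ± 26.7, 38.3 ± 10.1 and 54.9 ± 7.27 CPM, and Kif23 at 24.9 ± 6.88, 31.2 ± 7.27 and 29.5 ± 16.2 CPM. Anln, the scaffold of the contractile ring, stood at 34.4 ± 17, 37.9 ± 3.42 and 29.2 ± 22 CPM, and Ect2, which activates RhoA, at 15.1 ± 12.1, 14.2 ± 5.32 and 6.73 ± 8.42 CPM. Kif20a, the least abundant member with 66 counts, stood at 4.41 ± 5.5, 11.5 ± 12.1 and 6.1 ± 2.44 CPM. Restricted library 2 held 83 of the 336 counts of Anln and 25 of the 120 of Ect2, above both other restricted libraries (13 and 21, and 1 and 3).

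Chromosome structure genes, 7 members, held the most abundant transcripts. With age the median log2 fold change was 0.13, and for aged restricted against aged ad libitum it was -0.39, with 6 of 7 lower. Top2a, topoisomerase II alpha, had 509, 561 and 488 counts (young), 319, 316 and 343 (aged ad libitum) and 290, 400 and 399 (aged restricted). TMM-scaled, Top2a stood at 435 ± 15.7, 390 ± 56.7 and 313 ± 46.7 CPM. All restricted libraries lay below all young ones, with a log2 fold change of -0.48 ± 0.20 (edgeR adjusted p = 0.318). Smc4 and Smc2 are the paired ATPase subunits of condensin. Smc4 had 380, 423 and 355 counts (young), 316, 347 and 311 (aged ad libitum) and 213, 424 and 283 (aged restricted). TMM-scaled, Smc4 stood at 323 ± 15.3, 390 ± 72.2 and 255 ± 21.4 CPM, and the diet log2 fold change was -0.61 ± 0.21 (edgeR adjusted p = 0.193). Smc2 had 135, 147 and 113 counts (young), 104, 83 and 130 (aged ad libitum) and 51, 140 and 78 (aged restricted). TMM-scaled, Smc2 stood at 110 ± 9.32, 126 ± 29.7 and 72.6 ± 17.9 CPM, and the diet log2 fold change was -0.78 ± 0.29 (edgeR adjusted p = 0.242). For both genes all restricted libraries lay below all libraries of the other groups on the TMM scale. By library totals they did not. Restricted library 2 had 424 counts of Smc4 and 140 of Smc2 in 1258575, and young library 3 had 355 and 113 in 1212238. Ncapd2, a regulatory subunit of condensin I, ran otherwise, with 123, 133 and 134 counts (young), 56, 63 and 52 (aged ad libitum) and 74, 83 and 111 (aged restricted), or 109 ± 8.61, 68.5 ± 14.3 and 78.4 ± 22.3 CPM: all aged libraries of both diets lay below all young ones, and age gave -0.68 ± 0.31 (edgeR adjusted p = 0.433). Ncapg, another condensin I subunit, stood at 19.5 ± 7.47, 16.8 ± 7.01 and 12.5 ± 6.11 CPM, Mki67, the coat protein of mitotic chromosomes, at 129 ± 17.4, 154 ± 6.7 and 112 ± 15.1 CPM and Hmgb2, a chromatin protein of cycling cells, at 119 ± 31.5, 130 ± 13 and 123 ± 3.56 CPM.

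**Figure D4:**
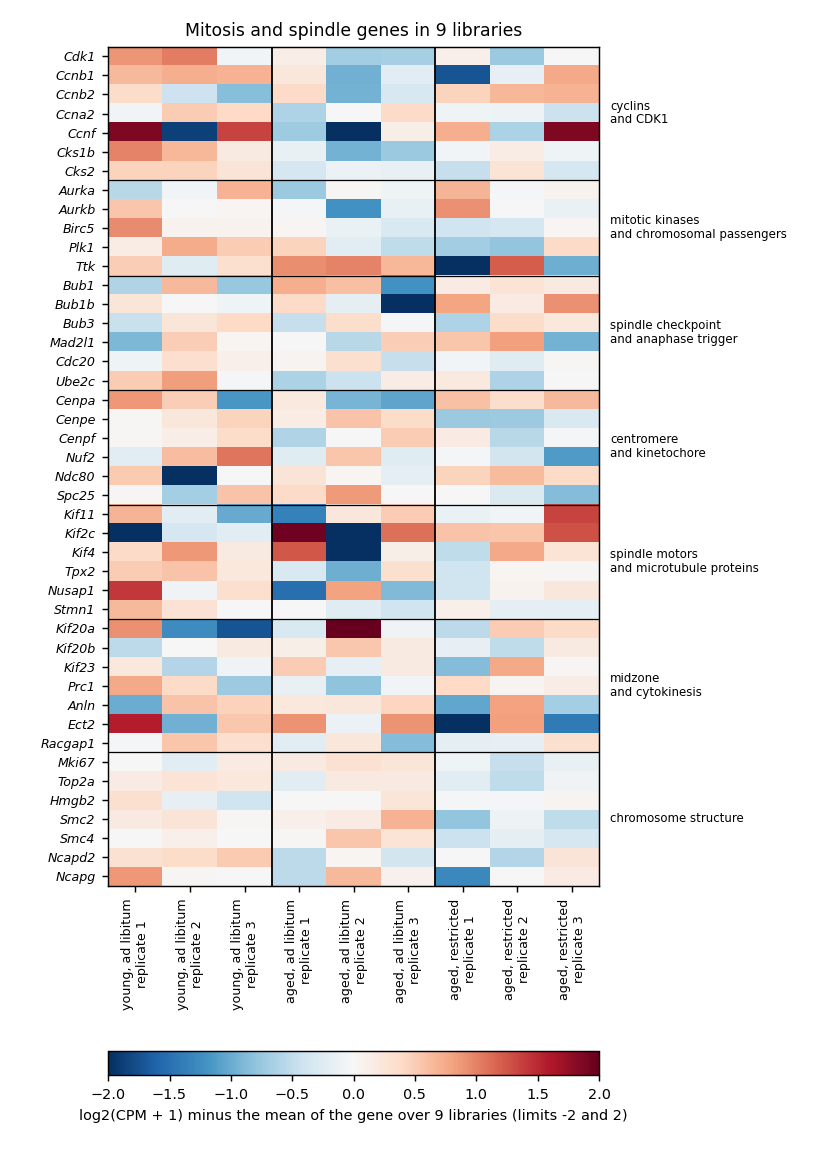
Log2 TMM-scaled CPM of the 44 members (rows, by role) in the 9 libraries (columns), each gene centred on its mean and colours limited at -2 and 2. Cks1b shows the highest values in the young columns and the lowest in the aged ad libitum columns, and Cenpe the lowest in the restricted columns.

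In 2 of the 7 roles, the share of the members' counts set the aged ad libitum libraries apart from both other groups. Cyclins and CDK1 partners took 17.5%, 16.7% and 13.2% of members' counts in young libraries, 12.4%, 7.85% and 9.54% in aged ad libitum and 13.7%, 13.8% and 13.7% in restricted libraries, so that every aged ad libitum library was below the others. Chromosome structure genes took 37.1%, 37.5% and 40.1%, then 40.8%, 47.6% and 46.9%, then 38.8%, 37.9% and 38.1%, so that every aged ad libitum library was above the others. Midzone and cytokinesis genes took 7.50% to 7.82% in young libraries, 8.08% to 9.07% in aged ad libitum and 7.83% to 10.7% in restricted ones, so the young libraries lay just below the rest. Checkpoint genes took 8.51% to 9.82% in aged ad libitum and 11.3% to 12.2% in restricted libraries, with the young ones, 8.45% to 11.8%, across both. The other 3 roles overlapped between all groups. A share also depends on the other roles. The summed level of chromosome structure genes overlapped between aged ad libitum (1179 to 1347 CPM) and young libraries (1136 to 1263), and that of cyclins and CDK1 partners between aged ad libitum (209 to 359) and restricted libraries (275 to 406). The aged ad libitum libraries were also the shallowest, and the parts of depth and of transcript length in these shares were not tested.

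**Figure D5:**
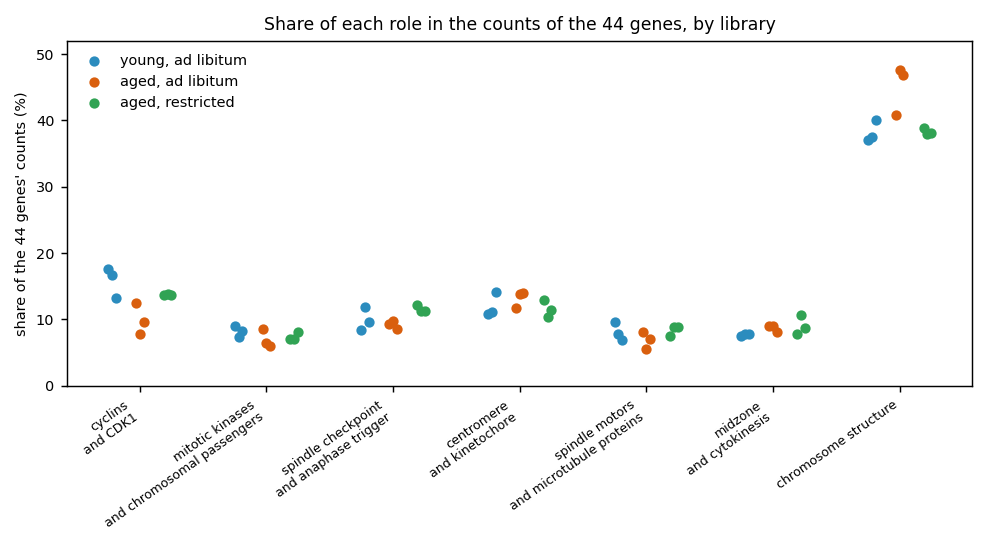
Share of the members' counts (percent, y axis) in each role for the 9 libraries. In aged ad libitum libraries cyclins and CDK1 partners took 7.85% to 12.4% and chromosome structure genes 40.8% to 47.6%, below and above the ranges of the other groups.

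Transcript length moved with the log2 fold changes of the 2 comparisons that share the aged ad libitum libraries. Over the 44 members, whose longest coding transcripts run from 692 to 11130 nucleotides, Spearman's rho between length and log2 fold change was 0.26 for age and -0.30 for aged restricted against aged ad libitum; over 8982 tested genes it was 0.17 and -0.20. For aged restricted against young it was -0.05 over members and -0.03 over tested genes. Members shorter than their median of 3406 nucleotides had a median age log2 fold change of -0.53 and the longer ones of -0.11, against -0.10 and 0.12 for all tested genes split at the same length. These are correlations across genes, which are not replicates, and the part of length in the results was not tested. Among the members described above, Cks1b had 849 nucleotides, Cdk1 4375 and Cenpe 7910.

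The spread between libraries, as edgeR estimates it, was close to that of other genes of like level. That estimate draws each gene toward genes of like level, so the closeness is partly built in. The biological coefficient of variation had a median of 34.9% over members (20.4% to 76.5%), 35.5% over 4092 tested genes of like level and 40.8% over all tested genes. Kif20a had the lowest mean level, 7.34 CPM over 9 libraries, and Top2a the highest, 379 CPM.

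In 6 lists of related genes, edgeR called 0 of 168 tested genes in each comparison, and in the 3-group test. At an unadjusted p under 0.05 there were 10 for age, 5 for diet, 13 for aged restricted against young and 12 for the 3 groups, where 10.4%, 11.7%, 11.6% and 14.0% of all tested genes passed. DESeq2 called 0, 0, 0 and 2 (Anapc11 and Ran), the last where it called 298 genes of the whole table. Of 28 tested kinetochore and centromere genes (35 listed) 16 were lower with age, of 27 spindle genes 11, of 29 genes of the anaphase-promoting complex and cohesin 12, of 20 passenger, condensin and cytokinesis genes 10 and of 24 mitotic entry genes 12, where 50.1% of all genes were lower. For aged restricted against aged ad libitum the counts lower were 19, 17, 19, 9 and 14. The genes named here had the smallest p in their lists. Ran, the GTPase that directs spindle assembly, stood at 660 ± 75.0, 437 ± 22.6 and 456 ± 50.3 CPM, and Anapc11, the catalytic RING subunit of the anaphase-promoting complex, at 189 ± 28.7, 102 ± 14.4 and 116 ± 7.46. Age gave log2 fold changes of -0.59 and -0.89, with edgeR adjusted p = 0.176 and 0.135. Cdca8, the passenger protein borealin, gave -1.38 (58.0 ± 26.4 to 22.2 ± 2.87 CPM, edgeR adjusted p = 0.214), and Tacc3, a spindle-stabilising protein, gave -1.43 for age and 1.52 for diet (22.7 ± 7.07, 8.36 ± 6.62 and 24.1 ± 8.89 CPM, edgeR adjusted p = 0.427 and 0.326). Septin7, a cytokinesis GTPase, stood at 114 ± 18.0, 187 ± 18.4 and 143 ± 17.3 CPM, with an age log2 fold change of 0.71 (edgeR adjusted p = 0.258).

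Knl1, the kinetochore scaffold, stood at 61.1 ± 7.25, 45.1 ± 14.2 and 27.3 ± 7.97 CPM and Cenpw, a centromere protein, at 110 ± 33.0, 79.7 ± 22.0 and 57.5 ± 15.3. Aged restricted against young gave -1.17 and -0.93 (edgeR adjusted p = 0.149 and 0.187). The cell cycle brake Cdkn1a, which encodes p21, stood at 59.0 ± 14.1, 99.5 ± 15.2 and 97.1 ± 13.2 CPM, and Trp53, its activator, at 22.0 ± 9.89, 53.6 ± 24.4 and 33.0 ± 13.4, with age log2 fold changes of 0.75 and 1.28 (edgeR adjusted p = 0.343 and 0.284). Cdc16, a subunit of the anaphase-promoting complex, stood at 4.25 ± 3.17, 14.9 ± 13.1 and 19.2 ± 11.4 CPM.

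DNA replication genes, 40 in number and all tested, gave the comparison with an earlier stage of the cell cycle. Of these, 27 of 40 were lower with age (median log2 fold change -0.27), 22 of 40 were higher for aged restricted against aged ad libitum (median 0.10) and 25 of 40 were lower for aged restricted against young (median -0.22). Cdt1, a licensing factor, stood at 31.7 ± 4.41, 11.8 ± 5.56 and 24.7 ± 4.80 CPM and gave an age log2 fold change of -1.43 (edgeR adjusted p = 0.299), and Rpa3, a single-strand binding subunit, stood at 12.4 ± 6.32, 17.7 ± 15.2 and 35.8 ± 7.17 CPM. The ratio of members' counts to replication genes' counts was 1.80, 1.91 and 1.74 in young, 1.67, 1.86 and 1.87 in aged ad libitum and 1.51, 1.68 and 1.55 in restricted libraries. The restricted ratios lay below all young ones and met the aged ad libitum range at its lower end.

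Reads of 5 members could also match processed pseudogenes, which match their last 600 bases on the same strand at 95% identity or more over at least 75 bases: Cks1b, Cks2, Mki67, Ndc80 and Stmn1. The count table lists 0 of these pseudogenes, and how multiply matched reads were treated is not given. The repeat in Cenpf also matches the pseudogene Mdm4-ps, on the opposite strand, at 95.2% over 165 bases. The 3′ ends of 7 members (Ccna2, Bub3, Cdc20, Ube2c, Kif20a, Prc1 and Ncapg) lie in a gene of the opposite strand.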

How the data were processed

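RNA was turned into libraries with the QuantSeq V2 kit, which captures the 3′ ends of polyadenylated transcripts, and read singly over 75 bp, per the labels' protocols. The authors deposited raw counts per gene for 9 libraries, all whole numbers. Per the submitters' processing notes, reads went through Trim Galore, STAR and featureCounts on GRCm38 (mm10). Versions, strand setting, treatment of multiply matched reads and molecular identifiers are not given in the sources used here. Because only 3′ ends were read, counts were left uncorrected for length. The members and all gene lists were chosen with earlier results of these data known.

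Genes were kept by edgeR's filterByExpr by group (minimum count 10), leaving 9009 of 25361. Library sizes were summed over the kept genes and scaled by TMM. A model of 3 groups over all 9 libraries was fitted with edgeR 4.0.16 in R 4.3.3 (robust quasi-likelihood, 6 residual degrees of freedom). P-values were adjusted by Benjamini-Hochberg over all tested genes, with a threshold of 0.05. DESeq2 1.42.0 was an alternative, beside other scalings, filters, a replicate block, the pair of groups alone and leaving out each library. The labels call the libraries biological replicates without naming the animals. No pair of libraries in a group agreed within sampling noise (lowest chi-square per degree of freedom 6.03). The edgeR fit was checked on simulated counts, and the other steps were not.

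Counts per library were printed for members called in any test, the 4 with the smallest p per comparison and the 2 most abundant per role, and the remaining members are given by their group means or range. From each list of related genes the 2 with the smallest p are named. Levels of named genes are TMM-scaled CPM, and marker and summed levels are CPM of all counts unless TMM is named. Promoter motifs were searched in Python 3.11.15, and 3′ ends were compared with other transcripts with BLAST 2.17.0. Gene coordinates of the table are not printed, because 1 of 44 members had the same start and end as in the annotation at hand. Depth was 810662 to 1258575 counts per library, and 1 count was worth 0.795 to 1.23 CPM.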

Additional observations from a re-analysis of the deposited data

How the results depend on the processing

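Single members were followed under the alternatives only in comparisons where they had the smallest p. Between pairs of groups, none of these log2 fold changes changed sign. Because these members were picked by p in the same data, this cannot show how stable the other members were. Members called for aged ad libitum against young went from 0 to 2 with no filter on low counts (Cdk1 and Cks1b) and to 1 with DESeq2 (Cks1b), and ran from 0 to 1 when 1 library was left out, the 1 being Cks1b without aged ad libitum library 1 (edgeR adjusted p = 0.0321). For aged restricted against aged ad libitum DESeq2 called 1 (Cenpe), and 0 were called whichever library was left out. Aged restricted against young gave 0 in every alternative run. The 3-group count of 1 became 0 with RLE size factors, 0 with library totals and 2 with no filter or with DESeq2, and 0 to 2 when 1 library was left out (2 without young 3 or aged ad libitum 1). The median log2 fold change for age ran from -0.33 (without aged ad libitum library 2) to -0.18 when 1 library was left out. The diet median, -0.03, took either sign, from -0.05 to 0.06. Summed levels without the mitochondrially encoded genes were 4943, 4451 and 3941 CPM for young, aged ad libitum and aged restricted. These are higher by calculation, since the same member counts were divided by a smaller total. The cause of the moves in calls and medians was not tested. In all, 310 values were compared, for the members followed and for counts at an unadjusted p. Of these, 283 kept their direction and side of the threshold or stayed within 1.5 times. The library sizes over all genes, the TMM-scaled sum and the sum without mitochondrially encoded genes were added after seeing the data.

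Over all genes the calls for age, diet, aged restricted against young and the 3 groups were 26, 85, 175 and 192; they were 126, 224, 286 and 442 with no filter, 83, 154, 238 and 298 with DESeq2, 19, 50, 117 and 146 with library totals, and 58, 43 and 213 with the pair of groups fitted alone. Leaving out a library gave 2 to 34, 35 to 157, 98 to 242 and 120 to 307.

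Samples of the same replicate number correlated in their deviations from the group means by -0.03 to 0.08, and those of different numbers by -0.08 to 0.05. With 3 libraries a group, whose deviations cancel, these values cannot decide whether the numbers pair the libraries, and a shared batch was not tested. With the replicate number as a block, 1 member was called for age (Cks1b, edgeR adjusted p = 0.0434), 0 for diet and 0 for aged restricted against young, 1 in the 3-group test, and 49, 133, 223 and 261 of all genes.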
